A study of Mus musculus with 21 samples.

Results

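The genes described here are those of antigen presentation by MHC class I and of peptide loading, in T cells of the mouse spleen that carry CD4 or CD8. They were chosen by name: B2m, H2-K1, H2-D1, H2-Q7, H2-T22, H2-T23, Tap1, Tap2 and Tapbp, which are 9 of the 12994 genes in the deposited table, where a dot stands for the hyphen (H2.K1). The series compared both populations between mice raised in an enriched environment (EE) and mice raised in a standard environment (SE), to find what enrichment does to peripheral T cells. All mice were female C57BL6/J. EE mice were moved at weaning, 4 weeks after birth, to large cages that held 12 to 15 mice with wheels, tunnels, houses and toys, and stayed there for 4 weeks. SE mice lived 5 to 6 to a medium cage without objects. The labels state that the animals of an experiment in one environment shared a cage. Whether all EE mice here came from 1 cage is not stated for certain, and an effect of the cage was not separated from that of the environment. According to the methods of the study, T cells were sorted as CD45+ CD11b- CD3+ cells carrying CD4 or CD8. The samples were 6 CD4+ EE, 5 CD4+ SE, 6 CD8+ EE and 4 CD8+ SE, 21 in all, from 12 mice, of which 9 gave both populations.

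An MHC class I molecule is a heavy chain bound to the small light chain beta-2-microglobulin, and it shows peptides from inside the cell to CD8+ T cells and to receptors of natural killer cells. The peptides are made by the proteasome, carried into the endoplasmic reticulum by the transporter TAP, and placed in the heavy chain with the help of tapasin, which bridges the chain and the transporter. Lymphocytes carry class I molecules at high levels, and the classical heavy chains are joined by non-classical ones, among them Qa-1 and Qa-2, whose variety and tissue range are narrower.

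Each value is a count of RNA molecules. During cDNA synthesis every molecule received a random tag (UMI) in the template-switching oligonucleotide, so that copies made by amplification were counted once. The authors divided the counts of each sample by its DESeq2 size factor, and these normalized counts are the levels given below. A CD4+ EE sample held between 145546 and 183941 molecules (median 164056.5) and a CD4+ SE sample between 157556 and 190885 (median 176086). The CD8+ samples were somewhat deeper, with 179696 to 221454 molecules in EE (median 191906.5) and 179008 to 203322 in SE (median 194488). The 9 genes together took 0.94% to 1.01% of the molecules in CD4+ EE samples, 0.833% to 0.937% in CD4+ SE samples, 0.914% to 0.967% in CD8+ EE samples and 0.879% to 0.939% in CD8+ SE samples. The labels of the populations were checked with their markers: Cd4 was at 42.8 to 85.8 in CD4+ samples and at most 0.966 in CD8+ samples, whereas Cd8b1 was at 1.26 to 9.15 and 177 to 243.

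Of the 9 genes, 8 lie on chromosome 17 of GRCm38, over 2.13 megabases (33915899 to 36042747). B2m (ENSMUSG00000060802) lies apart, on chromosome 2 from 122147686 to 122153083, plus strand. Tapbp (ENSMUSG00000024308, 33915899 to 33929292, plus strand) and H2-K1 (ENSMUSG00000061232, 33996017 to 34000347, minus strand) come first on chromosome 17. Tap1 (ENSMUSG00000037321, 34187553 to 34197225) and Tap2 (ENSMUSG00000024339, 34203527 to 34216321) lie on the plus strand on either side of Psmb8, which encodes an immunoproteasome subunit. Psmb9, another such subunit, starts on the opposite strand and overlaps Tap1 by 212 bases. H2-D1 (ENSMUSG00000073411, 35262730 to 35267499) and H2-Q7 (ENSMUSG00000060550, 35439155 to 35443773) follow on the plus strand. H2-T23 (ENSMUSG00000067212, 36029773 to 36032855) and H2-T22 (ENSMUSG00000056116, 36037128 to 36042747) close the region on the minus strand. All 9 are annotated as protein coding.

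**Figure D1:**
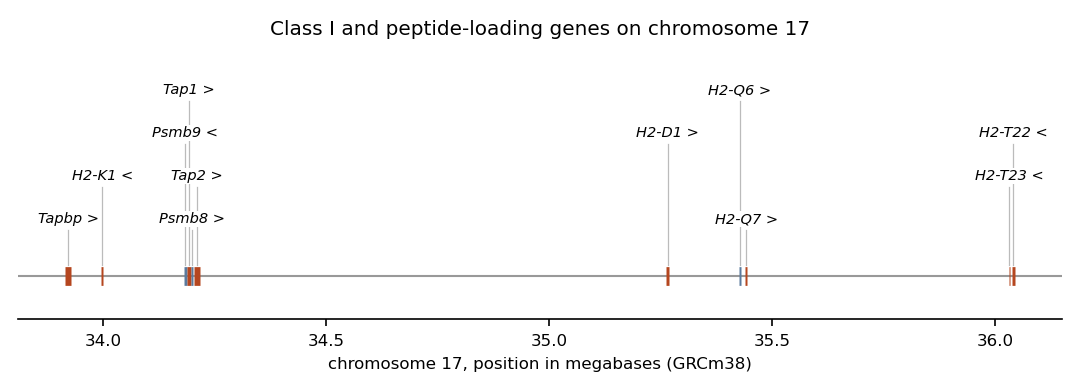
Map of chromosome 17 (GRCm38, position in megabases) with the 8 class I and peptide-loading genes it holds in red and Psmb8, Psmb9 and H2-Q6 in blue, each drawn to scale with an arrowhead for its strand. Tap1 and Tap2 sit beside Psmb8 and Psmb9, and H2-Q7 sits beside H2-Q6.

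Several of these genes have near-identical relatives, and the authors' counting could split or lose their molecules. Of the 50-base stretches of the principal H2-Q7 transcript, 40.2% also occur in a transcript of another gene, mainly H2-Q5 (20.1%) and H2-Q6 (19.6%). For H2-T22 the share was 44.7%, mainly with H2-T10 (37.9%), for H2-T23 28.8%, for H2-D1 14.3% and for H2-K1 8.79%. It was 0% for B2m and at most 2% for Tap1, Tap2 and Tapbp. The tag sits at the 5′ end of a molecule, and within the first 200 bases only H2-Q7 (11.9%) and H2-T22 (25.2%) had shared stretches. The counting is not stated to use strand, and B2m lies within Patl2, H2-T22 and H2-T23 overlap the antisense gene A930015D03Rik, and Tap2 overlaps Gm15821 (3148 bases) and Gm20496 (1923 bases) on the other strand. Tapbp overlaps the antisense gene Gm19412 (1207 bases) and shares 3422 bases of its own strand with Zbtb22, whose mean count was 2.37. By the shared stretches, the counts of H2-Q7 and H2-T22 are the least certain. H2-T23 comes next over the whole transcript but had no shared stretch within the first 200 bases.

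B2m was the most abundant of the 9 genes, followed by the classical heavy chains. Over the 21 samples, the mean normalized count was 531 ± 43.0 (SD, n = 21) for B2m, 393 ± 30.7 for H2-D1 and 341 ± 26.6 for H2-K1. It was 136 ± 22.2 for H2-Q7, 89.1 ± 12.0 for H2-T23, 42.1 ± 7.58 for Tapbp, 33.4 ± 8.48 for H2-T22, 31.1 ± 5.35 for Tap1 and 15.9 ± 5.57 for Tap2. Each of the first 5 genes in this order was above the next in 21 of 21 samples, as was Tap1 above Tap2. Tapbp was above H2-T22 in 15 samples and H2-T22 above Tap1 in 12, and in both CD8+ groups the mean of Tap1 was above that of H2-T22. A tagged molecule counts once whatever its length. Divided by the length of the principal transcript in kilobases, the mean levels were 618 for B2m, 210.5 for H2-K1, 187 for H2-D1, 91.2 for H2-Q7, 60.5 for H2-T23, 19.0 for H2-T22, 14.5 for Tapbp, 10.6 for Tap1 and 4.61 for Tap2. Where this order differs from that of the counts, as for H2-K1 and H2-D1, the fixed lengths make the difference, and it measures nothing further.

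**Figure D2:**
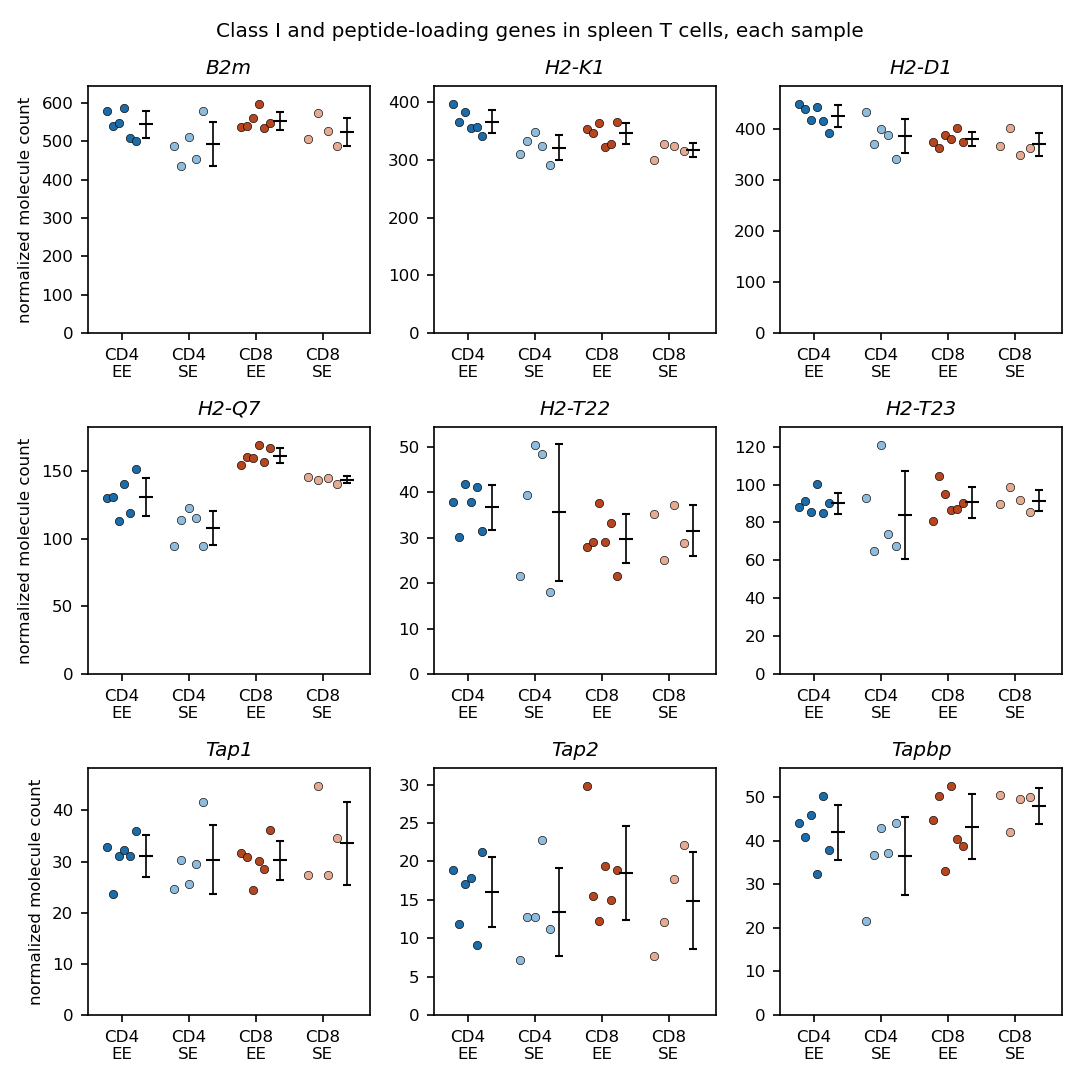
Normalized molecule counts of the 9 genes in each sample, by population and environment, with 6, 5, 6 and 4 samples from left to right. Points are samples, and the bar to their right gives the mean ± SD. H2-Q7 lies higher in CD8+ than in CD4+ samples of the same environment, and its CD8+ EE samples (154 to 169) lie above its CD8+ SE samples (140.3 to 146).

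The first question was whether these genes differed between EE and SE within a population. In CD4+ T cells all 9 had a higher fitted level in EE, by a median of 0.15 on the log2 scale, but 0 of the 9 passed the threshold. The direction turned for H2-T22 without SE replicate 6 (-0.062) and for Tap1 without SE replicate 1 (-0.016) or 4 (-0.003). H2-K1, H2-Q7, H2-D1 and B2m had the lowest p-values. Genes were compared with limma on log2(normalized count + 1), which understates changes of genes with few molecules, over all genes with a mean above 2, with Benjamini-Hochberg adjustment and a threshold of 0.05. Single genes were also compared on normalized counts by exact two-sided permutation tests, whose smallest possible p is 0.00433 in CD4+ samples (462 splits) and 0.00952 in CD8+ samples (210 splits). These permutation p-values are not adjusted for the number of genes compared, and no gene is called by them.

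The light chain B2m in CD4+ T cells ranged from 502 to 587 in the 6 EE samples, with a median of 545. In the SE samples it was 487 (replicate 1), 436 (replicate 3), 513 (replicate 4), 453 (replicate 5) and 579 (replicate 6). The groups overlapped, since SE replicate 6 lay above 4 of the EE samples while SE replicates 1, 3 and 5 lay below all of them. The means were 545 ± 34.8 for EE (SD, n = 6) and 494 ± 56.3 for SE (SD, n = 5). Their difference did not pass the threshold (log2 difference 0.15, 95% interval -0.03 to 0.32, adjusted p = 0.861 in limma, exact permutation p = 0.108). Among CD8+ samples B2m ranged from 535 to 597 in EE (median 544.5) and was 507, 576, 528 and 489 in SE replicates 1, 2, 3 and 6. Here SE replicate 2 lay among the EE samples and the other SE samples lay below them. The log2 difference was 0.08 (95% interval -0.04 to 0.20, adjusted p = 0.963 in limma, exact permutation p = 0.171).

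H2-K1 encodes the classical heavy chain K, a main presenter of peptides to CD8+ T cells. In CD4+ T cells its counts ranged from 341 to 397 in EE (median 362) and were 311, 332, 348, 324 and 292 in SE replicates 1, 3, 4, 5 and 6. Only EE replicate 6 lay within the SE range, and the other 5 EE samples lay above every SE sample. The EE mean of 366 ± 20.1 (SD, n = 6) was 14.0% above the SE mean of 321 ± 21.4 (SD, n = 5; exact permutation p = 0.00866). The log2 difference was 0.19 (SE 0.09, 95% interval 0.001 to 0.38), with an adjusted p of 0.835 in limma, where the unadjusted p was 0.0491. Among CD8+ samples H2-K1 ranged from 322 to 366 in EE (median 350.2) and was 300.6, 329, 325 and 316 in SE. EE replicates 4 and 5 lay within the SE range and the other 4 EE samples above it. The log2 difference was 0.12 (SE 0.07, 95% interval -0.02 to 0.27, adjusted p = 0.962 in limma, exact permutation p = 0.0476).

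H2-D1, the other classical heavy chain gene, showed a smaller log2 difference than H2-K1 in each population. In CD4+ T cells it ranged from 392 to 448 in EE (median 428) and was 432, 371, 399.5, 388 and 341 in SE replicates 1, 3, 4, 5 and 6. Of the EE samples, 3 lay above every SE sample, and 3 SE samples lay below every EE sample. The means, 426 ± 21.4 (SD, n = 6) and 386 ± 33.8 (SD, n = 5), gave an exact permutation p of 0.0433 but an adjusted p of 0.878 in limma (log2 difference 0.14, 95% interval -0.04 to 0.32). For CD8+ T cells the EE samples ranged from 363 to 402 (median 378) and the SE samples were 367, 401, 349 and 363, with wide overlap. The log2 difference there was 0.04 (95% interval -0.10 to 0.18, adjusted p = 0.992 in limma, exact permutation p = 0.371).

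H2-Q7 encodes a Qa-2 chain, a non-classical class I molecule of lymphocytes that is held to the membrane by a lipid anchor. In CD4+ T cells it ranged from 113 to 151 in EE (median 130.3) and was 94.7, 114, 122, 115 and 94.6 in SE replicates 1, 3, 4, 5 and 6. EE replicates 3 and 5 lay within the SE range, the other 4 EE samples above it, and SE replicates 1 and 6 were the lowest of all samples. The mean was 21.0% higher in EE (131 ± 13.8, n = 6, against 108 ± 12.7, n = 5, SD; exact permutation p = 0.0303), with a log2 difference of 0.27 (SE 0.13, 95% interval 0.01 to 0.53, adjusted p = 0.835 and unadjusted p = 0.0394 in limma).

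In CD8+ T cells H2-Q7 ranged from 154 to 169 in EE (median 160.1) and was 146, 143, 145 and 140.3 in SE replicates 1, 2, 3 and 6. Every EE sample lay above every SE sample, the only one of the 9 genes of which this held in either population. The separation was lost with the H2-Q6 molecules added to those of H2-Q7, an alternative chosen after seeing the data, where SE replicate 6 (210.5) lay above EE replicates 2 and 5 (at most 207), and H2-Q6 alone overlapped (39.6 to 68.9 and 40.3 to 70.2). Over all 7840 genes tested in CD8+ T cells, 40 (0.51%) had every EE sample above every SE sample, and in CD4+ T cells 17 of 7939 (0.214%) did, with 0 of the 9. In the other direction, every EE sample below every SE sample, there were 43 (0.548%) in CD8+ and 19 (0.239%) in CD4+ T cells, with 0 of the 9 in either. The exact permutation p of 0.00952 is the smallest that 6 against 4 samples can give, while the adjusted p in limma was 0.962 (log2 difference 0.16, SE 0.10, 95% interval -0.03 to 0.36). The SD between samples was 5.64 in EE and 2.32 in SE, below the 12.1 and 11.4 that counting of molecules alone gives, and the gap between the lowest EE and the highest SE sample was smaller than that counting error. The 2 CD8+ samples with many globin molecules, described below, were EE replicate 6 (167) and SE replicate 3 (145), and without them, an alternative chosen after seeing the data, the log2 difference was 0.16 (adjusted p = 0.946 in limma, and 0.91 to 1 over all alternatives of this comparison).

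The remaining genes had EE and SE samples that overlapped in both populations. H2-T23 encodes Qa-1, which presents a leader peptide of other class I chains to receptors of natural killer cells. In CD4+ T cells it ranged from 85.0 to 100.2 in EE (median 89.3) and was 92.7, 64.98, 121, 74.1 and 67.6 in SE replicates 1, 3, 4, 5 and 6, so that the SE samples held both the lowest values and the highest. Its CD8+ values ranged from 80.9 to 104 in EE (median 88.6) and were 89.9, 98.7, 91.8 and 85.6 in SE. H2-T22, whose product is bound by some gamma delta T cell receptors, had its widest spread in CD4+ SE samples, at 21.6, 39.4, 50.3, 48.4 and 18.0, against 30.0 to 41.7 in EE (median 37.8). The CD8+ samples had 21.5 to 37.6 of H2-T22 in EE and 25.1 to 37.1 in SE.

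The transporter and tapasin genes were low in count. Tap1 ranged from 23.6 to 36.0 in CD4+ EE samples, from 24.7 to 41.7 in CD4+ SE samples, from 24.4 to 36.1 in CD8+ EE samples and from 27.4 to 44.7 in CD8+ SE samples. Tap2, the other subunit of the transporter, was the least abundant gene, at 7 to 32 molecules per sample, with means of 16.0 ± 4.58 (SD, n = 6), 13.4 ± 5.74 (SD, n = 5), 18.5 ± 6.14 (SD, n = 6) and 14.9 ± 6.30 (SD, n = 4) in the same order of groups. Tapbp, the gene of tapasin, ranged from 32.3 to 50.3 in CD4+ EE samples and was 21.6, 36.6, 43.0, 37.0 and 43.9 in CD4+ SE samples. The CD8+ values of Tapbp ranged from 32.9 to 52.4 in EE and were 50.5, 41.9, 49.5 and 49.98 in SE, of which replicate 2 stood below the rest. Counting alone gives an SD of 22.2% to 27.0% of the mean for Tap2 and of 16.5% to 18.4% for Tap1, so differences smaller than this between single samples were not detectable at this depth. For these 5 genes the exact permutation p was 0.286 to 0.876 in all 10 comparisons of EE with SE.

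Between EE and SE in CD4+ T cells, 0 of the 9 passed the adjusted threshold of limma, beside 1 of 7939 genes (0.0126%), S100a6, which was chosen after its values were seen. At an unadjusted p under 0.05 there were 2 of the 9 (H2-K1 and H2-Q7) beside 462 of 7939 (5.82%). All 9 log2 differences were above 0, between 0.05 and 0.28, beside 3977 of 7939 (50.1%), and their median of 0.15 lies between the median over all genes (0.001) and their upper quartile (0.26). The class II genes, a mark of B cells and other presenting cells, pointed the same way in CD4+ T cells, with 7 of 8 above 0 (list median 0.38) and 0 passing. Their most abundant gene, Cd74, was at 80.2 to 157 in EE (median 122) and at 10.3, 188.5, 85.9, 58.9 and 150.9 in SE replicates 1, 3, 4, 5 and 6. The SE samples thus held both the lowest values and the highest, with a log2 difference of 0.74 (adjusted p = 0.78 in limma) that was 0.08 without SE replicate 1. The part of such cells in the levels of the 9 genes was not tested. In CD8+ T cells 0 of the 9 passed, beside 0 of 7840 genes (0%), and at an unadjusted p under 0.05 there were 0 of the 9 beside 413 (5.27%). Of the 9 log2 differences in CD8+ T cells, 5 were above 0, beside 3844 of 7840 (49%), and they ran from -0.16 for Tapbp to 0.33 for Tap2 with a median of 0.04 (-0.01 over all genes). With 1 sample left out, Tap2 ran from 0.075 to 0.544 and Tapbp from -0.223 to -0.088. The direction turned in this way for H2-T23 (up to 0.02) and Tap1 (up to 0.021). It turned for H2-T22 without the samples with many globin molecules (0.081). On the recovered molecules edgeR called 2 genes and DESeq2 1 in CD4+ T cells, and each called 0 in CD8+ T cells, with none of the 9 among them. The 9 genes summed to 1603 to 1776 in CD4+ EE samples (median 1678) and 1436 to 1636 in CD4+ SE samples (median 1492), where only SE replicate 4 reached the EE range. The CD8+ sums were 1626 to 1686 for EE (median 1651) and 1530 to 1671 for SE (median 1550).

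Whether the environments differed more in one population than in the other was tested as an interaction over all 21 samples. For these 9 genes the difference of the log2 differences, CD4+ minus CD8+, ran from -0.06 for Tap2 to 0.38 for Tapbp, and 0 of the 9 passed (adjusted p = 0.994 for each in limma). Over all genes 0 of 7938 (0%) passed in limma, in edgeR and in DESeq2, and 393 (4.95%) had an unadjusted p under 0.05, with 0 of the 9 among them. For H2-Q7 the interaction was 0.11 (95% interval -0.21 to 0.43), and for H2-K1 it was 0.06 (95% interval -0.17 to 0.30). A difference between the populations in the effect of the environment was thus not detected for any of the 9 genes, and the intervals do not show that there was none.

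The other comparison was that of the populations. H2-Q7 was lower in CD4+ than in CD8+ T cells, in every one of the 9 mice that gave both, and it was the only one of the 9 genes that passed the test. Its neighbour H2-Q6, which is a gene of the same family, was also lower in CD4+ T cells. The light chain, the classical heavy chains, the transporter and tapasin did not pass.

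The H2-Q7 counts of the EE mice, CD4+ then CD8+, were 129.7 and 154 in mouse 1, 131 and 160.4 in mouse 2, 113 and 159.8 in mouse 3, 140.3 and 169 in mouse 4, 119 and 157 in mouse 5, and 151 and 167 in mouse 6. For the SE mice they were 94.7 and 146 in mouse 1, 114 and 145 in mouse 3, and 94.6 and 140.3 in mouse 6. All CD8+ samples lay above all CD4+ samples within EE and again within SE, although over both environments the CD4+ range (94.6 to 151) and the CD8+ range (140.3 to 169) overlapped, CD4+ EE replicate 6 lying above all 4 CD8+ SE samples. Such a separation within both environments was found in 48 of 7938 genes (0.605%), 1 of the 9 among them. The mean was 120.4 ± 17.3 (SD, n = 11) in CD4+ and 154 ± 10.1 (SD, n = 10) in CD8+ T cells, 1.28-fold higher in CD8+ T cells, with a log2 difference of -0.36 (SE 0.08, 95% interval -0.52 to -0.20, adjusted p = 0.00135 in limma). Over all genes 349 of 7938 (4.4%) passed, beside 1 of the 9. At an unadjusted p under 0.05 there were 1176 (14.8%) beside 1 of the 9, and 3885 (48.9%) were higher in CD4+ T cells beside 3 of the 9. In bulk samples fewer cells that express a gene and less RNA of it per cell cannot be told apart.

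Since H2-Q7 shares sequence with H2-Q6 and H2-Q5, their values are given beside it. H2-Q6 (ENSMUSG00000073409, chromosome 17 from 35424850 to 35430055, plus strand) was at 33.0 ± 11.6 (SD, n = 11) in CD4+ and 55.6 ± 11.2 (SD, n = 10) in CD8+ T cells. It was higher in the CD8+ sample in 8 of 9 mice, the exception being EE mouse 2 (41.8 and 39.6), with a log2 difference of -0.80 (SE 0.15, adjusted p = 0.00013 in limma). H2-Q5 ranged from 6.76 to 23.1 in CD4+ and from 15.4 to 23.1 in CD8+ T cells. With the H2-Q6 molecules added to those of H2-Q7, an alternative chosen after seeing the data, the sums were 113 to 183 in CD4+ and 186 to 238 in CD8+ samples. The log2 difference of the sums was -0.46 (adjusted p = 1.18e-05 in limma). Each of both genes had already passed alone, so the sum is no separate result. How many of all genes have ranges without overlap over both environments is not given here. Over 33 alternatives the adjusted p of H2-Q7 was 1.18e-05 to 0.162, and the call was kept in 31. It was lost with EE samples only (-0.31, adjusted p = 0.0941 in limma) and with SE samples only (-0.41, adjusted p = 0.162 in limma), where the direction was the same with fewer samples.

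**Figure D3:**
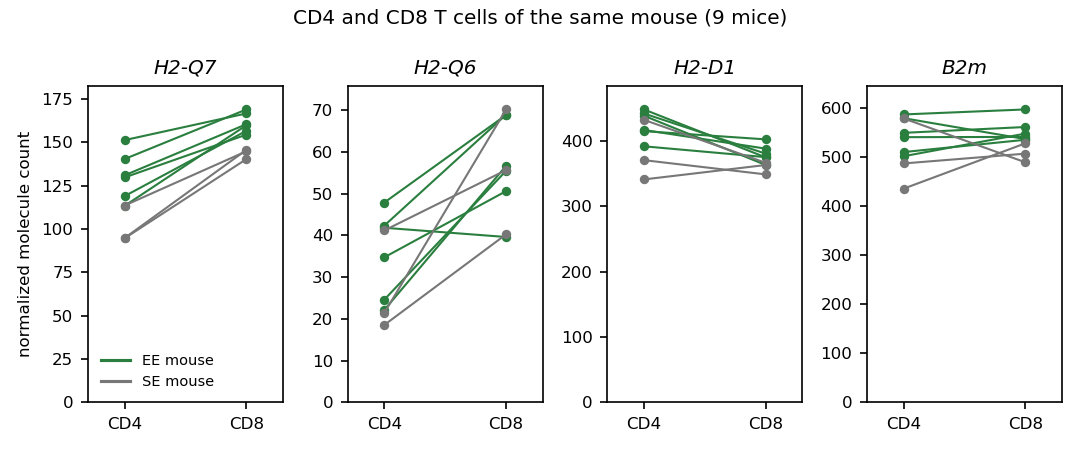
Normalized molecule counts in CD4+ and CD8+ T cells of the same mouse for H2-Q7, H2-Q6, H2-D1 and B2m, 1 line per mouse (9 mice, EE in green and SE in grey). H2-Q7 was higher in the CD8+ sample of 9 of 9 mice and H2-Q6 of 8, whereas H2-D1 was higher in the CD4+ sample of 8.

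The classical heavy chains pointed the other way without passing. H2-D1 was at 408 ± 33.2 (SD, n = 11) in CD4+ and 376 ± 17.2 (SD, n = 10) in CD8+ T cells, with a log2 difference of 0.11 (95% interval -0.00 to 0.22, adjusted p = 0.357 in limma), and was higher in the CD4+ sample of 8 of 9 mice. H2-K1 was at 346 ± 30.7 and 335 ± 21.5, a log2 difference of 0.05 (95% interval -0.07 to 0.16, adjusted p = 0.785 in limma), and higher in the CD4+ sample of 7 mice. B2m had a log2 difference of -0.06 (95% interval -0.17 to 0.05) and was higher in the CD8+ sample of 7 of 9 mice. Tapbp was at 39.4 ± 7.75 and 45.1 ± 6.46 (log2 difference -0.23, 95% interval -0.49 to 0.02, adjusted p = 0.414 in limma). The log2 differences of H2-T22, H2-T23, Tap1 and Tap2 were 0.19, -0.08, -0.05 and -0.17, with adjusted p of 0.635 to 0.922 in limma. The direction of Tap1 turned over the 9 paired mice (0.053 with the mouse as a block), and Tap1 was higher in the CD4+ sample of 6 of them. The median of the 9 was -0.06, beside -0.01 over all genes.

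Other genes of the pathway were taken as 5 lists. Between EE and SE, 0 of their 40 tested genes in CD4+ T cells and 0 of 34 in CD8+ T cells passed in limma, in edgeR or in DESeq2, and 1 and 5 had an unadjusted p under 0.05 in limma, beside 5.82% and 5.27% of all genes. In CD4+ T cells this was Cd74, given above. In CD8+ T cells the lowest belonged to Psme2 and Psmb10, named here after their values were seen. Psme2, a subunit of the proteasome activator PA28, was at 92.1 to 112 in EE and 121 to 147 in SE, with every EE sample below every SE sample, as in 43 of all 7840 genes (0.548%; log2 difference -0.40, adjusted p = 0.661 in limma). Psmb10, a catalytic immunoproteasome subunit, was at 38.6 to 67.2 and 25.0 to 44.5, with overlap (log2 difference 0.62, adjusted p = 0.661 in limma).

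The lists were then compared between the populations, where 4.4% of all tested genes passed (349 of 7938), so that 1 call in a list of 5 to 13 genes is a result about that gene and not about the list. Of the 5 immunoproteasome genes, which encode the inducible subunits and the activator of the proteasome, 1 was lower in CD4+ than in CD8+ T cells and 0 were higher (list median -0.13). This was Psme1, the other subunit of PA28, at 78.6 ± 8.51 (SD, n = 11) and 100.4 ± 16.0 (SD, n = 10), with a log2 difference of -0.35 (SE 0.10, adjusted p = 0.023 in limma) and a higher CD8+ value in 7 of 9 mice. With the mouse as a block it was -0.345 with an adjusted p of 0.0208 over all samples (estimated correlation) and -0.29 with an adjusted p of 0.101 over the 9 mice with both populations, which leaves out the unpaired samples. The adjusted p was 0.119 without CD8+ SE replicate 2 and 0.0846 without CD8+ SE replicate 1, and ran from 0.00176 to 0.343 over all alternatives. Psmb8, the most abundant of the list over all samples, was at 122 ± 16.7 (SD, n = 11) and 126 ± 13.5 (SD, n = 10) and did not pass.

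Of the 6 genes of chaperones and peptide trimming in the endoplasmic reticulum, 1 was lower in CD4+ T cells and 0 were higher (list median -0.13). Tapbpl encodes TAPBPR, a relative of tapasin that edits the peptides of class I molecules, and had 7.58 ± 3.23 (SD, n = 11) in CD4+ and 15.7 ± 3.54 (SD, n = 10) in CD8+ T cells, at 3 to 24 molecules per sample. It was higher in the CD8+ sample of 8 of 9 mice, SE mouse 1 being the exception (9.27 and 7.71), with a log2 difference of -1.01 (SE 0.23, adjusted p = 0.00233 in limma). With SE samples only the adjusted p was 0.329, in a range of 0.000904 to 0.329 over all alternatives. Pdia3, the most abundant of this list, is a partner of tapasin and was at 35.2 ± 10.4 (SD, n = 11) and 26.2 ± 5.02 (SD, n = 10) without passing (adjusted p = 0.22 in limma).

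Of 19 other class I heavy chain genes looked for, 13 were in the table and 7 were tested, of which H2-Q6, the most abundant, was lower in CD4+ T cells as given above and 0 were higher (list median -0.26). Of 14 genes that act in the transcription of class I genes, 13 were tested and 1 was lower in CD4+ T cells (list median -0.10). Nlrc5, the transactivator of class I genes, had 5.93 ± 2.45 (SD, n = 11) in CD4+ and 11.8 ± 5.91 (SD, n = 10) in CD8+ T cells, at 1 to 29 molecules per sample, and was higher in the CD8+ sample of 6 of 9 mice. The CD8+ values ran from 5.64 to 24.9, the highest being EE replicate 6, and overlapped with the CD4+ values of 0.95 to 10.1. The log2 difference was -0.89 (SE 0.27, adjusted p = 0.0411 in limma), and with the mouse as a block it was -0.88 with an adjusted p of 0.0387 over all samples (estimated correlation) and -0.69 with an adjusted p of 0.169 over the 9 paired mice alone. The call was kept in 17 of 31 alternatives (adjusted p 0.0137 to 0.353). Beside the paired mice, it was lost with pseudocount 0.5 (adjusted p = 0.0506 in limma), with EE samples only (0.312), with SE samples only (0.353) and without the 2 samples with many globin molecules (0.113). It was also lost, at 0.0552 to 0.142 in limma, without any 1 of CD4+ EE replicates 1 and 4, CD4+ SE replicates 1 and 5, CD8+ EE replicates 1, 4 and 6, and CD8+ SE replicates 1 and 2.

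The class II genes present peptides from outside the cell and are a mark of B cells and other presenting cells. Most of those tested went the other way. Of 11 looked for, 10 were in the table and 8 were tested, and 5 were higher in CD4+ T cells and 0 lower (list median 3.02). Of the 8, 6 had a log2 difference above 0. H2-Oa (-0.80, adjusted p = 0.252 in limma) and H2-DMa (-0.225, adjusted p = 0.72 in limma) lay below 0 without passing. Cd74, the invariant chain, was at 109.7 ± 49.8 (SD, n = 11) in CD4+ and 5.02 ± 10.4 (SD, n = 10) in CD8+ samples (log2 difference 4.91, SE 0.34, adjusted p = 3.94e-19 in limma). The other genes that passed were H2-Ab1 (4.58), H2-Eb1 (4.30), H2-Aa (4.211) and H2-DMb2 (1.84, adjusted p = 0.00186 in limma). The summed class II list was 198 to 325 in CD4+ EE samples, 45.3 to 454 in CD4+ SE samples, 30.9 to 73.8 in CD8+ EE samples and 23.3 to 36.0 in CD8+ SE samples.

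Of the marker lists of other cell types, those of B cells and natural killer cells held genes that passed between the populations. Those of myeloid and red cells held 0. The summed B cell list (10 genes, Ighm the most abundant) was 62.4 to 106 in CD4+ EE and 24.7 to 114 in CD4+ SE samples, against 32.8 to 69.6 and 36.0 to 46.8 in the CD8+ groups. Of that list Cd79a and Igkc were among the genes higher in CD4+ T cells, and Ms4a1, Ebf1 and Blk were at 0 in every CD8+ sample. Ighm did not pass (log2 difference 0.08, adjusted p = 0.863 in limma). CD4+ SE replicate 1, which had the lowest class II sum and the lowest B cell sum of the CD4+ samples, was low for H2-Q7 (94.7), H2-T22 (21.6), Tap2 (7.21) and Tapbp (21.6) but had the highest H2-D1 value of the CD4+ SE samples (432). CD4+ SE replicate 6, with a class II sum of 314 and a B cell sum of 99.1, was as low for H2-Q7 (94.6) and lower for H2-T22 (18.0). The natural killer list (4 of 5 genes in the table, Nkg7 the most abundant) was 186 to 241 in CD8+ and 10.1 to 40.2 in CD4+ samples. It was carried by Nkg7 and Klrd1, which CD8+ T cells also express, while Klrb1c was at 0 in 18 of 21 samples and Gzma in 18. The myeloid list (6 of 8 genes in the table, Cst3 the most abundant) was 12.3 to 62.2 in CD4+ and 14.1 to 48.1 in CD8+ samples, with Lyz2 and Csf1r at 0 in the CD4+ SE and CD8+ EE groups. In the CD8+ SE group Lyz2 was above 0 in every sample (0.857 to 11.5), at 1 to 12 molecules. Its mean over the CD8+ samples, 1.97, was too low for it to be tested. Among the genes tested there, 43 of 7840 (0.548%) had every EE sample below every SE sample. Cst3, of the same list, overlapped in CD8+ samples, at 14.1 to 34.95 in EE and 12.85 to 34.6 in SE. Globin and other red cell genes (5 genes, Hba-a1 the most abundant) summed to 580.5 in CD8+ EE replicate 6 and 1033 in CD8+ SE replicate 3, and to at most 26.7 in the other samples. The T cell list (8 genes, Cd3d the most abundant) was 686 to 867 in CD4+ and 743 to 901 in CD8+ samples, and 1 of its genes, Thy1, was lower in CD4+ T cells. The part of these other cell types in the differences above was not tested. An alternative chosen after seeing the data left out the 2 samples with many globin molecules. H2-Q7 then had a log2 difference between the populations of -0.35 (adjusted p = 0.0071 in limma). That of Nlrc5 was -0.83, beside -0.89 over all samples. Its call was lost (adjusted p = 0.113 in limma), as it was without some single samples, given above.

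RefSeq promoter sequences (GRCm38.p6, from 250 bases before to 50 after the start of transcription) matched 8 of the 9 genes, all except Tap2. They were searched on both strands for 3 motifs known from class I promoters: the kappa B site GGGATTCCC, the interferon response letters GAANNGAAA, and the CCAAT box. The kappa B letters were found in 116 of 32851 promoters (0.35%), the interferon letters in 2469 (7.52%) and CCAAT in 12289 (37.4%). Among the 8 promoters, kappa B and the interferon letters each occurred in 3, those of H2-K1, H2-D1 and H2-Q7, and CCAAT in 8. All 3 motifs together occurred in 5 promoter entries (0.015%), which belong to 4 genes: H2-K1 with 2 entries, H2-D1, H2-Q7 and H2-Q6. Stretches of 3 of these promoters are printed because H2-Q7 and H2-Q6 differed between the populations and H2-K1 did not. They come from chr17:35439013-35439129 (plus strand) for H2-Q7, chr17:35424668-35424785 (plus strand) for H2-Q6 and chr17:34000349-34000467 (minus strand) for H2-K1, upstream of the annotated genes, and are written 5′ to 3′ along the gene. Capitals mark, in order, the kappa B site, the interferon letters (read from the other strand as TTTCNNTTC) and the CCAAT box (read as ATTGG).
H2-Q7: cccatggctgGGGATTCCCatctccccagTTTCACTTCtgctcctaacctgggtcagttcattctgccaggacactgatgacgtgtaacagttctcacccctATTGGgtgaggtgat
H2-Q6: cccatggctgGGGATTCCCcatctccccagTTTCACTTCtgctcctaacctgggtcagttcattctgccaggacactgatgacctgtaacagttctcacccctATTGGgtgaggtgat
H2-K1: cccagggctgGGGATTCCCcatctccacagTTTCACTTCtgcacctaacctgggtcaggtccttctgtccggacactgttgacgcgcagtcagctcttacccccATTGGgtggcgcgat
The H2-Q7 and H2-Q6 stretches were the same in 116 of 118 aligned positions (98.3%), and H2-K1 and H2-Q7 in 100 of 119 (84%). A match of letters describes the sequence and does not show that a factor binds there.

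For Tap1 and Tapbp the SD over all samples (5.35 and 7.58) was about that of counting alone (5.50 and 6.38), so depth limits how far the values of such genes can be seen to vary together. Across the 21 samples the Pearson correlation of log2(normalized count + 1) was 0.58 between H2-K1 and H2-D1, the highest of the pairs, and -0.45 between H2-T22 and Tap1, the lowest, with B2m at 0.28 to H2-K1 and 0.17 to H2-D1. These points share groups, depth and, in part, mice, and the values are a description. Of 2718 other genes with a mean above 10, those most like B2m were Rpl39 (r = 0.74), Rpl27 (0.72) and Rpl36al (0.71), which encode ribosomal proteins. Those most like H2-K1 were Frg1 (0.70), Cyba (0.68) and Med8 (0.68), over the same 21 samples.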

How the data were processed

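The authors trimmed reads with cutadapt, aligned them with STAR 2.4.0a to mm10 (GRCm38), counted tagged molecules per gene, filtered low genes by a limit that is not stated, and divided by DESeq2 size factors. The deposited signal is thus a normalized molecule count for 12994 genes in 21 samples. Division by the smallest positive value of each sample gave whole molecules for 100% of values (within 0.01). The samples held 145546 to 221454 molecules (median 182470), and all 46 pairs within groups differed beyond sampling (chi-square, largest p = 6e-119).

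Groups, animals and populations came from the labels. Comparisons used limma 3.58.1 (trend) in R 4.3.3 on log2(value + 1), tested every gene whose mean exceeded 2, with Benjamini-Hochberg adjustment over all genes. On recovered molecules edgeR 4.0.16 called 2, 0, 365 and 0 genes and DESeq2 1.42.0 called 1, 0, 324 and 0 (EE against SE in CD4+, in CD8+, CD4+ against CD8+, interaction). Exact permutation tests were two-sided and their p-values were not adjusted. Only the fit of EE against SE in CD4+ samples was tried on simulated data, with limma, edgeR and DESeq2.

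Other alternatives were a pseudocount of 0.5, no filter, a mean above 10, equal totals, 1 fit of all samples, EE or SE only, replicate blocks, each sample left out, and levels per transcript kilobase. Chosen after seeing the data were leaving out both samples with many globin molecules and adding H2-Q6 to H2-Q7. CD4+ and CD8+ samples of 9 mice are paired by animal in the labels, and their deviations from group means correlated at -0.0149 to 0.0354 (mean 0.014). Samples of different mice that share only a number correlated at -0.0065 to 0.0295 (mean 0.0069), so the pairs were hardly more alike.

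Named were the 9 genes, most genes of the lists that passed the threshold, the most abundant gene of most lists, and the 3 genes most like B2m and H2-K1. The genes and lists were chosen with earlier results of these data known. Annotation was GENCODE M21, and intervals are at 95%. The rest was done in Python 3.11.15 with pandas 2.3.3, NumPy 2.4.6 and SciPy 1.17.1, and figures with Matplotlib 3.10.9.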

Additional observations from a re-analysis of the deposited data

Results flagged for a closer look

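Of 132 groups of values examined for a sample far from the others, 15 held one, and 1 of these was among the 36 groups of the 9 genes. Where all other samples of a group were at 0, 1 molecule was enough, so the number was not compared with chance. Tapbp in CD8+ SE replicate 2 was at 41.9, with the other samples at 49.5 to 50.5. The sum of the 9 genes in CD4+ SE replicate 4 was 1636, with the others at 1436 to 1493. The summed immunoproteasome list was 348 in CD4+ SE replicate 6, the summed endoplasmic reticulum list 79.9 in CD8+ EE replicate 5, and the summed list of class I transcription genes 245 in CD4+ EE replicate 5. The red cell list summed to 580.5 in CD8+ EE replicate 6 and to 1033 in CD8+ SE replicate 3.

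The rest were in CD8+ samples. The CD4 markers summed to 0.966 in EE replicate 2. Cd74 was at 34.4, H2-Ab1 at 4.294 and H2-Eb1 at 6.01 in EE replicate 6, which also had many globin molecules, and H2-DMb2 was at 2.82 in EE replicate 3. SE replicate 1 had H2-Aa at 0.856, H2-Ab1 at 0.856 and H2-Eb1 at 2.57, each at 0 in the other SE samples. What sets these samples apart was not tested.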

How the results depend on the processing

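Depth limits Tap1, Tap2, H2-T22 and Tapbp most. Between EE and SE, 1 gene passed in CD4+ T cells. This became 0 with pseudocount 0.5, 0 when means had to exceed 10, 0 in 1 fit of all samples, 0 with a replicate block, 3 without a filter and 2 in edgeR. Leaving out 1 sample gave 0 to 3: 3 without EE replicate 1, 2 without EE replicate 3, and 0 without EE replicates 2, 4 or 5 or SE replicates 1 or 5. In CD8+ T cells the number was 0 and became 3 without a filter and 3 with the replicate block. Leaving out 1 sample gave 0 to 3: 1 without EE replicate 3 or 4, 2 without SE replicate 1 and 3 without SE replicate 6. The numbers shared by EE and SE animals mark different mice, so this block pairs nothing. Between the populations 349 became 216 with a mean above 10 (fewer genes tested), 227 with EE and 105 with SE samples only (fewer samples), and 300 to 362 with 1 sample left out. The interaction gave 0 throughout. Under a replicate block for the mouse, the populations differed in 358 genes (correlation estimated) and 323 (9 paired mice, with the unpaired samples left out). The calls of Psme1 and Nlrc5 were kept in the former and lost in the latter. The latter has fewer samples and also gave smaller log2 differences for both. These were -0.29 against -0.345 for Psme1 and -0.694 against -0.884 for Nlrc5. H2-Q7, H2-Q6 and Tapbpl kept their calls in both. What cost the calls of Psme1 and Nlrc5 was not tested.

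Of the values of the 9 genes, 876 kept direction and call, H2-Q7 lost its call in 2 and 17 turned sign, none of them called in any setting. With 1 sample left out, H2-T22 in CD4+ EE against SE ran from -0.062 to 0.296 and Tap1 from -0.016 to 0.167. In CD8+ T cells H2-T23 ran from -0.058 to 0.02 (0.013 with the replicate block) and Tap1 from -0.208 to 0.021. H2-T22 was at 0.081 without the samples with many globin molecules. Between the populations Tap1 was 0.037 with EE samples only, 0.053 over the 9 paired mice (block), and -0.108 to 0.023 with 1 sample left out. The interaction of Tap2 ran from -0.267 to 0.202. The cause was not tested.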
